A study of Mus musculus with 13 samples.

Results

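The Cyp4a genes encode cytochrome P450 enzymes of the endoplasmic reticulum that add a hydroxyl group to the omega end of fatty acids. The 6 mouse genes Cyp4a10, Cyp4a14, Cyp4a31, Cyp4a32, Cyp4a12a and Cyp4a12b were followed here, out of 23785 gene rows in the count tables. They were chosen by family name, and 4 of them, Cyp4a10, Cyp4a14, Cyp4a31 and Cyp4a32, also because the study had listed them from its comparison of both BDL groups. Measured values of that comparison therefore selected members, and it is given here as a description with no test. All 6 genes passed the filter on low counts in all 3 comparisons.

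Liver RNA of 13 C57 mice aged 3 months was sequenced, each library from a different mouse. The study's methods describe its mice as male. The no BDL group held 5 mice without BDL, labelled as not treated. In the miR-Ctrl BDL group 4 mice had the bile duct ligated (BDL), which blocks bile flow and injures the liver, and received a control oligonucleotide. In the anti-miR-873-5p BDL group 4 mice had the same ligation and received an inhibitor of the microRNA miR-873-5p. Both oligonucleotides were injected at 60 µg per mouse on days 3 and 5 after ligation, and livers were taken on day 7. The sources used here describe no sham operation and no injection for the group without BDL, and ligation, operation and injection cannot be told apart in a comparison with it. The table of both BDL groups holds 3 mice per group: mouse 3 of the miR-Ctrl group and mouse 2 of the anti-miR-873-5p group are in the tables against no BDL and absent from this one. The deposited table is titled as holding no outliers, and the study's supplement says that outliers, where there were any, were taken out after clustering and principal component analysis, without naming mice.

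Omega hydroxylation opens a side route of fatty acid oxidation: alcohol and aldehyde dehydrogenases turn the hydroxylated end into a second acid group, and peroxisomes shorten the resulting dicarboxylic acid. Cyp4a10 and Cyp4a14 are classical targets of PPAR-alpha, the nuclear receptor that senses fatty acids and drives their oxidation during fasting, and fibrate drugs raise both. Cyp4a12a also makes 20-HETE from arachidonic acid, and Cyp4a12a and Cyp4a12b are expressed mainly in males under androgen and growth hormone.

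The 6 genes lie on chromosome 4 of GRCm38. Cyp4a12a spans 115299046 to 115332815, Cyp4a12b 115411624 to 115439034, Cyp4a14 115486200 to 115496158, Cyp4a10 115518287 to 115533649, Cyp4a31 115563627 to 115579015 and Cyp4a32 115600927 to 115622507. Each has 12 coding exons in the GENCODE M21 annotation, and Cyp4a14 is read from the minus strand while the other 5 are read from the plus strand. The coding sequences fell into 3 kinds. Cyp4a10, Cyp4a31 and Cyp4a32 shared 96.0% to 97.2% of aligned bases, Cyp4a12a and Cyp4a12b shared 98.5%, and Cyp4a14 shared 75.2% to 76.1% with the other 5.

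Reads were 50 bases long, so the sequences decide which members a read can name. The first 50 coding bases identical in Cyp4a10, Cyp4a31 and Cyp4a32 are shown because a read from them fits all 3 genes. They lie in exon 2, on the plus strand, at chr4:115519720-115519769 in Cyp4a10, chr4:115565100-115565149 in Cyp4a31 and chr4:115602350-115602399 in Cyp4a32.
shared by Cyp4a10, Cyp4a31 and Cyp4a32: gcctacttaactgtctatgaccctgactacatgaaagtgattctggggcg

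A window in exon 5, at an equal distance from the stop codon in all 6 genes, is shown because it tells them apart. Capitals mark bases that differ from Cyp4a10. The windows lie at chr4:115524259-115524308 (Cyp4a10), chr4:115492674-115492723 (Cyp4a14, minus strand), chr4:115569720-115569769 (Cyp4a31), chr4:115609638-115609687 (Cyp4a32), chr4:115326201-115326250 (Cyp4a12a) and chr4:115432453-115432502 (Cyp4a12b).
Cyp4a10: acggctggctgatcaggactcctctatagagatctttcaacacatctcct
Cyp4a31: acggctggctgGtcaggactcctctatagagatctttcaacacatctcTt
Cyp4a32: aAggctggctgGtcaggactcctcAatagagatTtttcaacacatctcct
Cyp4a12a: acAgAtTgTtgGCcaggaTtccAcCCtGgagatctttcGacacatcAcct
Cyp4a12b: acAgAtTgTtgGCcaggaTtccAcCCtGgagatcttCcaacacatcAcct
Cyp4a14: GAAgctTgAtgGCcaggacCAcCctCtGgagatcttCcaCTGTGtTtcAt
Here Cyp4a31 differed from Cyp4a10 at 2 of 50 bases and Cyp4a32 at 4, Cyp4a12a differed from Cyp4a12b at 2, and Cyp4a14 differed from Cyp4a10 at 20.

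Over whole transcripts, 24.5% of the 50-base windows of Cyp4a10 occurred unchanged in Cyp4a32 and 15.0% in Cyp4a31. For Cyp4a12a 48.9% of windows occurred in Cyp4a12b. Within 2 mismatches of another member were 75.45% of windows of Cyp4a10, 54.9% of Cyp4a31 and 79.3% of Cyp4a32. The same held for 87.9% of windows of Cyp4a12a and 88.9% of Cyp4a12b. No window of Cyp4a14 occurred in another member, and 2.08% came within 2 mismatches of one. The program that assigned reads to genes is not given in the sources used here, so it is not known whether shared reads were split, dropped or given to 1 gene. Values of Cyp4a10, Cyp4a31 and Cyp4a32 are therefore uncertain among themselves, as are those of Cyp4a12a and Cyp4a12b. Cyp4a31 also shared unchanged windows with 559 genes outside the family, so its values may hold reads from these. In all, 20.55% of its windows occurred unchanged in any other gene, members included, with 14.7% in Cyp4a32 and 12.2% in Cyp4a10. Cyp4a14 shared windows with 1 gene outside the family and stands almost wholly on reads of its own. Summed over Cyp4a12a and Cyp4a12b, the log2 fold change vs. no BDL was -4.40 ± 0.34 (SE) with miR-Ctrl and -3.44 ± 0.63 with anti-miR-873-5p, both past the test. Summed over Cyp4a10, Cyp4a31 and Cyp4a32 it was -0.20 ± 1.14 and 0.70 ± 0.93, neither past it.

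The agent given was directed at miR-873-5p, and its mature sequence is shown with the seed (bases 2 to 8) in capitals, from RefSeq, at chr4:36668556-36668576 of GRCm38, minus strand.
mmu-miR-873a-5p: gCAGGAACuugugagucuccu
The 7-base match to this seed, gttcctg, was searched on the sense strand of every GENCODE M21 transcript. It occurred in 0 of the 6 Cyp4a genes and in 34.5% of protein-coding genes. The coding transcript of Cyp4a32 there holds 1530 bases, 1527 of them coding. Hardly any untranslated sequence of this gene was therefore searched, and a site there could not have been found. Absence of these 7 letters says nothing about other ways in which the microRNA could reach these genes.

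Levels of single mice are CPM, read counts scaled to a common library size by TMM over the 13 mice. In no BDL livers Cyp4a12a and Cyp4a12b were the most abundant members per length of transcript. Mean CPM per kilobase was 180 for Cyp4a12a, 130 for Cyp4a12b, 39.7 for Cyp4a10, 26.0 for Cyp4a32, 7.85 for Cyp4a31 and 6.80 for Cyp4a14 (n = 5). The lowest mouse for Cyp4a12b, at 99.1 CPM per kilobase, was above the highest for Cyp4a10, at 86.5. Every other pair of neighbours in that order overlapped between mice. Lengths came from GENCODE M21, with 1536 bases for Cyp4a32 and 2109 to 2601 for the other members. The annotation used for counting is not known, so the place of Cyp4a32 in the order is uncertain.

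**Figure D1:**
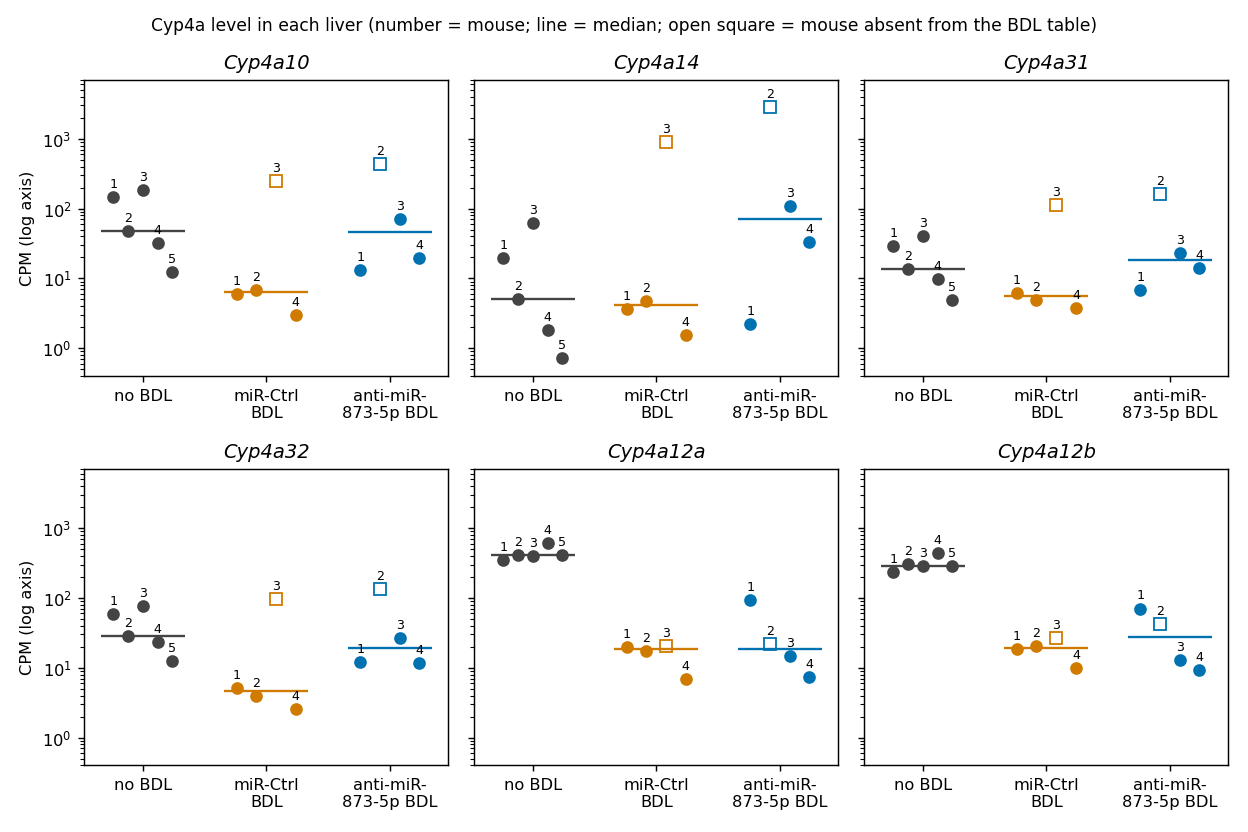
CPM of each Cyp4a gene (log axis) in the 13 livers by group. Each point is 1 mouse with its number, lines are group medians, and open squares are mouse 3 of miR-Ctrl and mouse 2 of anti-miR-873-5p, absent from the table of both BDL groups. Cyp4a12a and Cyp4a12b were lower in all BDL livers, while the open squares stand above all other mice for the other 4 genes.

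The clearest change after BDL was the fall of Cyp4a12a and Cyp4a12b, the male-type members. Cyp4a12a was at 345, 408, 397, 607 and 418 CPM in no BDL mice 1 to 5. It was at 19.98, 17.3, 20.4 and 6.89 CPM in miR-Ctrl BDL mice 1 to 4, and at 92.9, 22.2, 14.6 and 7.31 in anti-miR-873-5p BDL mice 1 to 4. Every liver with BDL was below the lowest one without, and anti-miR-873-5p mouse 1 was the highest of those with BDL.

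Cyp4a12b followed the same layout, with 237, 308, 289, 435 and 286 CPM in no BDL mice. It was at 18.5, 20.3, 27.0 and 9.86 CPM in miR-Ctrl BDL mice and at 70.6, 42.2, 13.1 and 9.23 in anti-miR-873-5p BDL mice. Again livers with and without BDL did not overlap, and anti-miR-873-5p mouse 1 was the highest of those with BDL.

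In miR-Ctrl BDL vs. no BDL, the log2 fold change was -4.74 ± 0.36 (SE, adjusted p = 6.05e-05, edgeR, 4 vs. 5 mice) for Cyp4a12a. Cyp4a12b gave -4.03 ± 0.31 (adjusted p = 7.04e-05, edgeR). In anti-miR-873-5p BDL vs. no BDL, Cyp4a12a gave -3.65 ± 0.69 (adjusted p = 0.00704, edgeR) and Cyp4a12b -3.19 ± 0.57 (adjusted p = 0.00566, edgeR). Both comparisons share the same 5 no BDL mice. Changes are relative to the median gene, since TMM factors were 0.625 to 0.866 in no BDL and 1.08 to 1.45 in BDL libraries. Scaling by library size alone moved the median gene to 0.79 with miR-Ctrl and to 0.82 with anti-miR-873-5p, and calls over all genes became 9360 higher and 275 lower in place of 2491 and 2175, and 10063 and 131 in place of 1715 and 1108. Under it Cyp4a12a was still lower, at -3.94 and -2.89. So, under TMM, 2 of 6 members were lower and none higher in each, where 16.6% of all genes tested were lower and 19.1% higher after BDL with miR-Ctrl, and 8.44% lower and 13.1% higher with anti-miR-873-5p. Groups did not overlap, with BDL lower, for the same 2 members, against 14.8% of all genes with miR-Ctrl and 8.23% with anti-miR-873-5p.

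Other male-biased liver genes fell in the same livers. Of the list of 20 such genes, 13 of 18 tested fell and none rose in miR-Ctrl BDL vs. no BDL. Their median was -2.30 on the log2 scale, against -0.01 over all genes. With anti-miR-873-5p 10 of 19 fell and none rose, with a median of -1.92. With library size alone 11 and 8 still fell and none rose. Serpina1e, a serine protease inhibitor, fell from 19062 ± 6136 CPM (SD, n = 5) to 3139 ± 492 (n = 4) with miR-Ctrl and 4008 ± 1084 (n = 4) with anti-miR-873-5p. Cyp2d9, a steroid hydroxylase, fell by 1.64 on the log2 scale with miR-Ctrl (adjusted p = 0.000845, edgeR) and by 1.34 with anti-miR-873-5p (adjusted p = 0.0283, edgeR). Mup20, a urinary protein, gave -2.11 and -1.46 (adjusted p = 0.0670 and 0.171, edgeR), and Gstp1, a glutathione transferase, gave -0.29 and -0.49 (adjusted p = 0.502 and 0.431), none past the test.

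Of 18 female-biased genes, 9 were tested in each of these comparisons, and 2 rose and 1 fell in both. Of all genes tested, 19.1% were higher and 16.6% lower with miR-Ctrl, and 13.1% and 8.44% with anti-miR-873-5p. The median log2 fold change of the list was 0.17 with miR-Ctrl and -0.29 with anti-miR-873-5p. With library size alone it was 0.99 and 0.53, against 0.79 and 0.82 over all genes. The list genes that rose, named after their values were seen, were Prom1 (2.63 and 2.11), a membrane protein also known from progenitor and duct cells, and Atp6v0d2 (1.59 and 2.22), a proton pump subunit. The list gene that fell was Cyp2c40, from 231 ± 53.5 CPM (n = 5) to 73.3 ± 9.95 (n = 4) and 89.0 ± 24.4 (n = 4).

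Hepatocyte markers fell in part under TMM, and with library size alone 2 rose and 2 fell with miR-Ctrl and 3 rose and 1 fell with anti-miR-873-5p. Of 8, 4 fell with miR-Ctrl and 2 with anti-miR-873-5p, among them Ttr, a thyroid hormone carrier (-2.14 and -1.67), and none rose. Their summed level over 7 genes ranged from 88658 to 103420 CPM in no BDL livers, 40640 to 70602 in miR-Ctrl BDL and 35785 to 78273 in anti-miR-873-5p BDL livers. Most of this sum was Alb, with means of 82902, 47180 and 46514 CPM in that order. Alb itself gave -0.80 and -0.82 (adjusted p = 0.0931 and 0.168, edgeR), not past the test. All 7 cholangiocyte (bile duct cell) markers rose in both comparisons, and 6 of them, with equal counts in all tables, summed 11.3 to 17.02 CPM in no BDL, 47.3 to 84.3 in miR-Ctrl BDL and 40.1 to 103 in anti-miR-873-5p BDL livers. Macrophage markers rose for 5 of 6 genes with miR-Ctrl and for 1 of 6, Marco (2.71, adjusted p = 0.0499, edgeR), with anti-miR-873-5p, while with library size alone 6 of 6 rose in both. Of 5 neutrophil markers, 3 were tested (S100a8, S100a9 and Csf3r) and rose in both. Stellate and fibroblast markers rose for 3 of 7 and 4 of 7 genes, and of 5 endothelial markers none fell with miR-Ctrl and 1, Kdr (-1.27), with anti-miR-873-5p. In whole liver, fewer cells of a type and less RNA per cell cannot be told apart, and the part of cell makeup in the values of the Cyp4a genes was not tested.

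In the other 4 genes mice of 1 group differed widely among themselves. Cyp4a14, a PPAR-alpha target, was at 19.5, 5.04, 61.4, 1.80 and 0.715 CPM in no BDL mice 1 to 5. It was at 3.64, 4.77, 909 and 1.57 CPM in miR-Ctrl BDL mice 1 to 4, and at 2.20, 2854, 109 and 33.3 in anti-miR-873-5p BDL mice 1 to 4. A single liver in each BDL group stood far above all others, and these were the mice absent from the table of both BDL groups.

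In miR-Ctrl mouse 3, Cyp4a14 was 273 times the mean of the other 3 mice of its group and 14.8 times the highest no BDL liver. In anti-miR-873-5p mouse 2 it was 59.4 times the mean of its group's other 3 and 46.5 times the highest no BDL liver. Across 12655 genes with enough counts, Cyp4a14 had the highest standard deviation within groups, 3.50 on the log2 scale against 0.28 for the median gene. Without these 2 mice its standard deviation was 2.15 and its rank 9.

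Cyp4a10, also a PPAR-alpha target, was at 145, 47.4, 182, 31.9 and 12.2 CPM in no BDL mice. It was at 6.07, 6.86, 250 and 3.02 CPM in miR-Ctrl BDL mice and at 13.02, 439, 71.5 and 19.7 in anti-miR-873-5p BDL mice. With mouse 3 included, miR-Ctrl and no BDL livers overlapped. The other miR-Ctrl livers were below the lowest no BDL liver, and anti-miR-873-5p livers other than mouse 2 lay within the no BDL range. The share of all genes that do so without the absent mice was not counted, so nothing is read from it.

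Cyp4a31, a near copy of Cyp4a10, was at 29.2, 13.5, 41.0, 9.82 and 4.93 CPM in no BDL mice. It was at 6.13, 4.89, 111 and 3.75 CPM in miR-Ctrl BDL mice and at 6.80, 161, 23.3 and 13.9 in anti-miR-873-5p BDL mice. All 3 groups overlapped.

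Cyp4a32, the other near copy, was at 58.9, 28.6, 76.6, 23.2 and 12.6 CPM in no BDL mice. It was at 5.16, 4.00, 95.7 and 2.60 CPM in miR-Ctrl BDL mice and at 12.1, 133, 26.8 and 11.5 in anti-miR-873-5p BDL mice. With mouse 3 included, miR-Ctrl and no BDL livers overlapped. The other miR-Ctrl livers were below every no BDL liver, from which nothing is read for the same reason as in Cyp4a10.

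In no BDL livers the 4 genes ordered the mice alike. All 4 ran from mouse 3 through mice 1, 2 and 4 to mouse 5, and the ratio of highest to lowest mouse was 85.8 for Cyp4a14, 14.9 for Cyp4a10, 8.32 for Cyp4a31 and 6.06 for Cyp4a32. For Cyp4a12a and Cyp4a12b that ratio was 1.76 and 1.83, and mouse 4 was highest. In the anti-miR-873-5p group mouse 2 was highest and mouse 3 next for all 4 genes, while Cyp4a12a and Cyp4a12b were highest in mouse 1. The order of anti-miR-873-5p mice 1 and 4 differed between Cyp4a32 and the other 3. In the miR-Ctrl group all 6 genes, Cyp4a12a and Cyp4a12b included, were highest in mouse 3 and lowest in mouse 4, with mice 1 and 2 in either order. The mice absent from the BDL table kept low Cyp4a12a, at 20.4 CPM in miR-Ctrl mouse 3 and 22.2 in anti-miR-873-5p mouse 2.

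Under TMM, none of these 4 genes passed the test against no BDL. With miR-Ctrl, Cyp4a14 gave a log2 fold change of 3.70 ± 1.86 (SE), and the values were -0.33 ± 1.26 for Cyp4a10, 0.66 ± 1.02 for Cyp4a31 and -0.59 ± 1.02 for Cyp4a32. Adjusted p (edgeR) was 0.149, 0.860, 0.648 and 0.689 in that order. In anti-miR-873-5p BDL it was 5.40 ± 1.88 for Cyp4a14, 0.70 ± 1.03 for Cyp4a10, 1.38 ± 0.89 for Cyp4a31 and 0.20 ± 0.76 for Cyp4a32. Adjusted p (edgeR) was 0.0663, 0.665, 0.296 and 0.876. Scaled by library size alone, Cyp4a14 gave 5.91 and Cyp4a31 2.03 with anti-miR-873-5p, past the threshold. The BDL libraries in these fits include those whose values selected these 4 genes, so a pass is only a description. Standard errors near or above 1 on the log2 scale leave changes of several fold undetectable.

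The values against no BDL turned on the absent mice. Without miR-Ctrl mouse 3, Cyp4a10 gave -3.96 ± 0.91, Cyp4a32 -3.34 ± 0.61 and Cyp4a31 -1.99 ± 0.63, and Cyp4a14 went from 3.70 to -2.39 ± 1.24. These fits rest on the same BDL libraries whose values selected these 4 genes, so they are a description with no test. Past the threshold and lower were 5 of 6 members and 20.1% of all genes, from which nothing is read. Without anti-miR-873-5p mouse 2, Cyp4a10 gave -1.24 ± 0.88, Cyp4a32 -1.23 ± 0.57, Cyp4a31 -0.40 ± 0.64 and Cyp4a14 1.47 ± 1.26, and 2 of 6 members and 13.4% of all genes were past the threshold and lower. Cyp4a12a stayed at -4.87 ± 0.40 and -3.50 ± 0.78 without these mice.

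**Figure D2:**
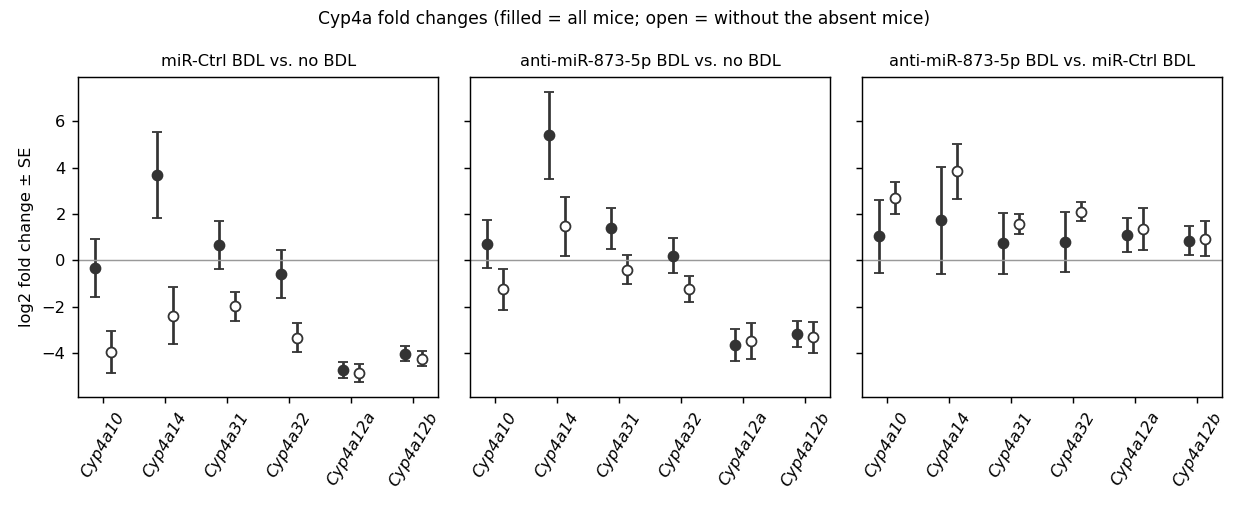
Log2 fold change with its standard error for each Cyp4a gene in the 3 comparisons. Filled points use all mice, and open points leave out the absent mouse of the BDL group or, in the right panel, those of both groups. Cyp4a12a and Cyp4a12b barely move between filled and open points, while Cyp4a14 moves from 3.70 to -2.39 in the left panel.

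The comparison of anti-miR-873-5p with miR-Ctrl after BDL is the one from which the study had listed 4 of the members, so its values are a description. With 3 mice per group, the log2 fold change was 3.85 ± 1.19 (SE) for Cyp4a14, 2.71 ± 0.69 for Cyp4a10, 2.10 ± 0.41 for Cyp4a32 and 1.58 ± 0.44 for Cyp4a31. All 3 anti-miR-873-5p livers were above all 3 miR-Ctrl livers for Cyp4a10, Cyp4a31 and Cyp4a32, an arrangement held by 6.59% of all genes. For Cyp4a14 they overlapped, since anti-miR-873-5p mouse 1, at 2.20 CPM, lay between miR-Ctrl mice 4 and 1. Of all 13746 genes tested, 0% were higher and 0% lower by edgeR's adjusted p, 6.28% had an unadjusted p under 0.05, and DESeq2 called 26 genes.

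Cyp4a12a gave 1.37 ± 0.91 and Cyp4a12b 0.93 ± 0.75 in this comparison. Both rested on anti-miR-873-5p mouse 1, without which they gave -0.43 and -0.55. The median over the 6 genes was 1.84, against 0.01 over all genes. With all 4 mice of each group the median was 0.95, and Cyp4a14 gave 1.73 ± 2.31, Cyp4a10 1.05 ± 1.58, Cyp4a32 0.80 ± 1.28 and Cyp4a31 0.73 ± 1.33, each less than its standard error.

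The makeup of the family differed between groups and mice. In no BDL livers Cyp4a12a held 37.9% to 56.9% of the reads of the 6 genes, and Cyp4a14 held 0.0975% (95% Wilson interval 0.0513% to 0.185%, mouse 5) to 5.86% (5.46% to 6.29%, mouse 3). In miR-Ctrl BDL mice 1, 2 and 4 Cyp4a14 held 6.12%, 8.21% and 5.68%, and in anti-miR-873-5p mice 1, 3 and 4 it held 1.11%, 42.1% and 35.1%. In the absent mice it held 64.3% and 78.2%. These intervals cover counting error only.

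The sum of all 6 genes ran from 734 to 1108 CPM in no BDL livers. It was 27.7 to 59.5 CPM in the 3 miR-Ctrl livers other than mouse 3 and 95.04 to 258 in the 3 anti-miR-873-5p livers other than mouse 2. In the absent mice the same sum was 1414 and 3651 CPM.

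**Figure D3:**
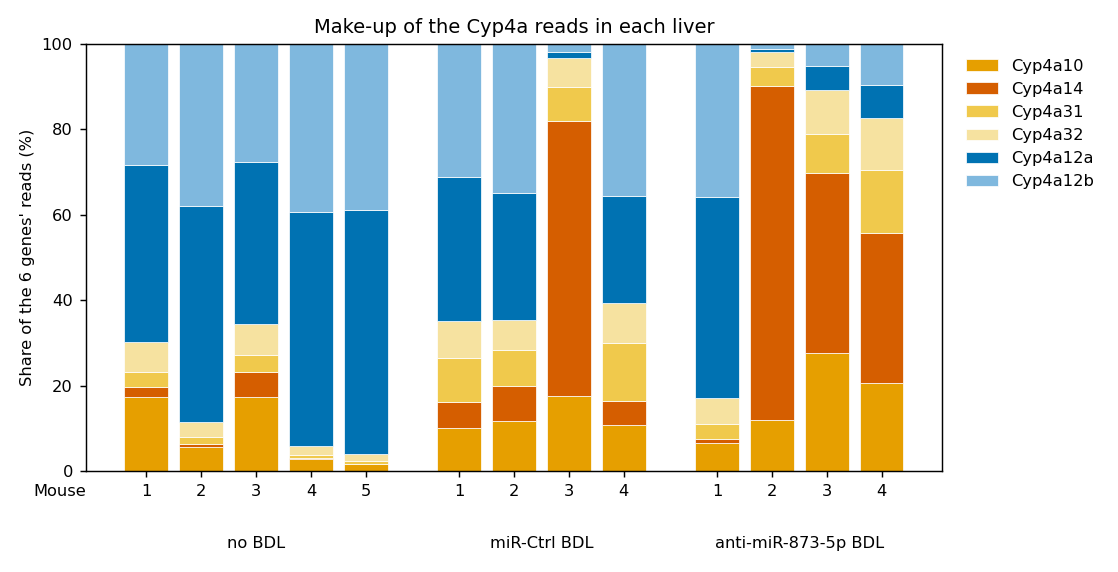
Share of the reads of the 6 Cyp4a genes (%, bars from 0 to 100) taken by each gene in each mouse. Blue shades are Cyp4a12a and Cyp4a12b, which hold most reads in no BDL livers, and dark orange is Cyp4a14, which holds 64.3% in miR-Ctrl mouse 3 and 78.2% in anti-miR-873-5p mouse 2.

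The balance of near copies also differed. Reads of Cyp4a31 per read of Cyp4a32 were 0.39 to 0.54 in no BDL livers, 1.16 to 1.44 in miR-Ctrl BDL livers and 0.56 to 1.21 in anti-miR-873-5p BDL livers. The lowest BDL value belonged to anti-miR-873-5p mouse 1, and livers with and without BDL did not overlap. Reads of Cyp4a12a per read of Cyp4a12b were 1.33 to 1.46 in no BDL livers, 0.70 to 1.08 in miR-Ctrl BDL and 0.53 to 1.32 in anti-miR-873-5p BDL livers. Since the counting of shared reads is not known, these are ratios of reads as counted, and Cyp4a31 may hold reads from outside the family.

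Genes outside the family were ranked by how alike their pattern was to Cyp4a14 and to Cyp4a12a. Over 13 mice, which share libraries and groups, the highest Pearson r of log2 CPM with Cyp4a14 among non-members was 0.937 for Acot2 and 0.924 for Acot1, thioesterases that free fatty acids from coenzyme A. Trib3, a pseudokinase induced by stress, gave 0.913, Igfbp2, an IGF binding protein, 0.907, and Egln1, an oxygen-sensing hydroxylase, 0.901. Without the 2 absent mice the order of these genes changed. Igfbp2 then gave r = 0.846, Acot2 0.819, Acot1 0.759, Trib3 0.715 and Egln1 0.664. Acot2 was at 97.3 CPM in miR-Ctrl mouse 3 and 86.3 in anti-miR-873-5p mouse 2, and at 3.26 to 18.9 in the other 11 mice.

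For Cyp4a12a the nearest non-members were Sult2a8, a bile acid sulfotransferase of mouse liver, at 0.980, Scp2, a peroxisomal thiolase and sterol carrier, at 0.978, Aars2, a mitochondrial alanyl-tRNA synthetase, at 0.977, Gm16548 at 0.967 and Gm19522 at 0.966. Sult2a8 was at 417 to 945 CPM in no BDL livers and at 0.967 to 3.99 in all BDL livers but anti-miR-873-5p mouse 1, where it was 51.9. This is the liver that was highest of the BDL groups for Cyp4a12a. Within groups, after subtraction of group means, r was 0.839 for Sult2a8 and 0.945 for Acot2 with its own member. Cyp4a14 itself had r = 0.946 with Cyp4a31, 0.831 with Cyp4a10, 0.763 with Cyp4a32 and -0.318 with Cyp4a12a, and Cyp4a12a had r = 0.991 with Cyp4a12b. Without the 2 absent mice, r with Cyp4a14 was 0.844 for Cyp4a31, 0.696 for Cyp4a10 and 0.564 for Cyp4a32, and r with Cyp4a12a was 0.347, 0.569 and 0.697 for the same genes.

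**Figure D4:**
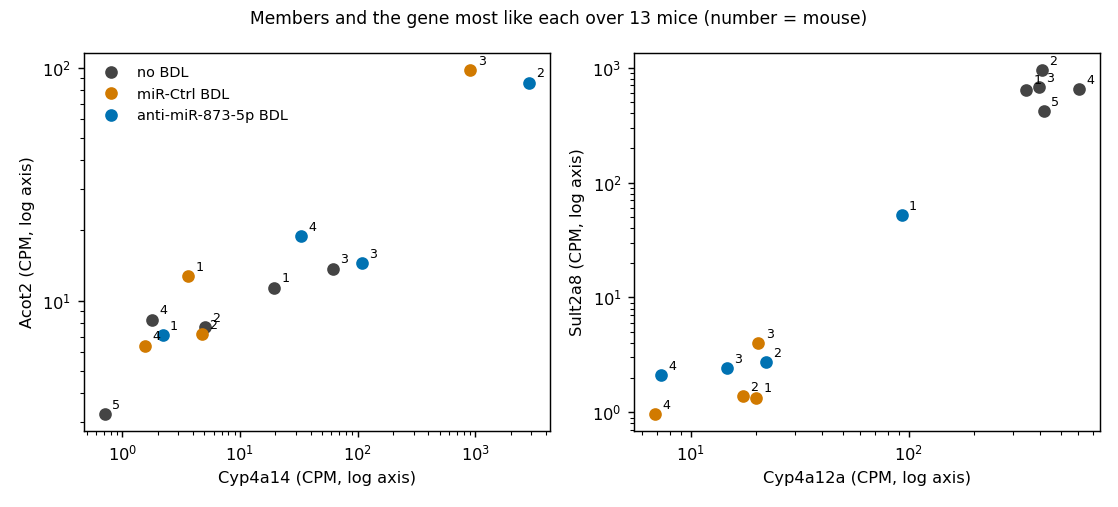
CPM (both axes log) of Cyp4a14 against Acot2 (left) and of Cyp4a12a against Sult2a8 (right) in the 13 livers, numbered by mouse and coloured by group. The left panel is stretched by the mice absent from the BDL table (97.3 and 86.3 CPM of Acot2), the right by the no BDL livers, with anti-miR-873-5p mouse 1 in between.

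Genes of the PPAR-alpha route were followed as a list of 30. With miR-Ctrl 3 rose and 6 fell vs. no BDL (median -0.38), where 19.1% of all genes tested were higher and 16.6% lower. With anti-miR-873-5p 2 rose and 2 fell (median -0.12), where 13.1% of all genes were higher and 8.44% lower. No result about the list is read from these counts. The list genes that rose were named after their values were seen. With miR-Ctrl they were Pdk4, a brake on glucose oxidation (2.95), Ucp2, a mitochondrial carrier (1.52), and Cd36, a fatty acid receptor (1.09). With anti-miR-873-5p they were Ucp2 (1.44) and Slc27a1, a fatty acid transporter (1.09), and those that fell were Fabp1 and Pex11a (-0.88). With library size alone 9 rose and 2 fell with miR-Ctrl (median 0.38), and 18 rose and 1 fell with anti-miR-873-5p (median 0.69). All genes moved further up under that scaling. Their medians were 0.79 and 0.82, with 9360 of 13072 genes higher with miR-Ctrl and 10063 of 13130 with anti-miR-873-5p. The list thus stayed below the median gene. Without the absent mouse, under TMM, 18 fell and 1 rose with miR-Ctrl and 11 fell and 2 rose with anti-miR-873-5p. Of all genes, 20.1% were then lower and 2999 of 13509 higher with miR-Ctrl. With anti-miR-873-5p 13.4% were lower and 2500 of 13597 higher. Fabp1, which carries fatty acids in the hepatocyte, fell by 3.23 (adjusted p = 0.000291, edgeR) and by 2.61 (adjusted p = 0.0111, edgeR) on the log2 scale. Rxra, the partner receptor of PPAR-alpha, fell by 0.59 with miR-Ctrl (adjusted p = 0.00433, edgeR) and gave -0.25 with anti-miR-873-5p (adjusted p = 0.235).

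Plin2, a coat protein of lipid droplets, was at 1016 and 884 CPM in the absent mice, above the no BDL maximum of 634.

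Most of this list stood high in the 2 absent mice. Of 27 genes with enough counts, 20 were at their group's highest in both mice (74.1%) and none at its lowest, against 24.7% and 26.1% of all 12655 genes. Over stellate and fibroblast markers 6 of 6 were lowest in both mice, over endothelial markers 4 of 5, over macrophage markers 3 of 6 and over male-biased genes 10 of 19. Hepatocyte markers were highest in both for 4 of 7 genes, and Tat, a glucocorticoid-induced aminotransferase, was at 3527 and 4808 CPM there against 1017 ± 166 in no BDL livers. These libraries had the fewest counts of the 13 over genes common to all tables, 11154093 and 11775691, and whether cell makeup, depth or the state of these mice had a part was not tested.

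The rest of the omega oxidation route was tested as a list of 22 genes. With miR-Ctrl 16 fell and none rose (median -0.75), and with anti-miR-873-5p 6 fell and none rose (median -0.62). With library size alone the medians were 0.04 and 0.18, against 0.79 and 0.82 over all genes. Under it 5 fell and 1 rose with miR-Ctrl, and 1 fell and 3 rose with anti-miR-873-5p. Scp2, under TMM, fell by 1.304 and 1.05 on the log2 scale, from 4414 ± 508 CPM to 1771 ± 145 and 2101 ± 453. Acaa1b, a peroxisomal thiolase, fell by 1.78 with miR-Ctrl (adjusted p = 0.00340, edgeR) and gave -1.26 with anti-miR-873-5p (adjusted p = 0.0904). Aldh2, which oxidises aldehydes, fell by 0.76 with miR-Ctrl (adjusted p = 0.00409, edgeR) and gave -0.60 with anti-miR-873-5p (adjusted p = 0.0913). Adh1 gave -0.75 and -0.63, with neither past the test.

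Of other Cyp4 genes, from the same P450 family, 8 of 10 tested fell with miR-Ctrl and 4 of 10 with anti-miR-873-5p, with 1, Cyp4f18, rising in each (3.26 and 3.29). With library size alone 1 fell and 2 rose with miR-Ctrl, and none fell and 2 rose with anti-miR-873-5p. Cyp4f14, a hydroxylase of leukotriene B4, was at 347 ± 62.6 CPM in no BDL and gave -1.85 with miR-Ctrl (adjusted p = 0.0110, edgeR) and -1.44 with anti-miR-873-5p (adjusted p = 0.0661). It was lowest of its group in both absent mice, at 20.3 and 23.2 CPM, opposite to Cyp4a14. Cyp4v3, Cyp4f15 and Cyp4f13 fell in both comparisons, by 0.86, 1.16 and 0.93 with miR-Ctrl and by 0.80, 0.76 and 0.78 with anti-miR-873-5p. Between both BDL groups no gene of any of these lists passed edgeR's test, where none of all genes did.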

How the data were processed

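The authors made TruSeq v2 libraries from liver RNA, sequenced single reads of 50 nt and mapped them to mm10 with TopHat, and the submitters' notes also name CASAVA 1.8.2, FastQC, Trim Galore and DESeq2. The deposited values were raw counts per Entrez gene in 1 table per comparison, with 12185333 to 19689037 counts per mouse. The kit does not mark strand, and the counter and annotation are not given in the sources used here. All 24 value columns were used and 0 were left out.

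Entrez rows were named by RefSeq. Genes were kept by filterByExpr, scaled by TMM and tested per table with edgeR 4.0.16 (quasi-likelihood, R 4.3.3) with Benjamini-Hochberg adjustment over all genes at 0.05. SE is the absolute log2 fold change over the square root of F. DESeq2 1.42.0 was an alternative. For CPM of the 13 mice, rows were limited to the 22246 whose counts were equal across tables, and lengths and windows came from GENCODE M21. The fits were tested on simulated data.

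The members and lists were chosen with earlier results of these data known. The text names all members, up to 4 genes per list by mean count, and the 5 non-members nearest to Cyp4a14 and Cyp4a12a among those averaging 10 or more counts. Mouse numbers name different animals. The correlations of same-numbered mice were not all above 0.1, so numbers were not used as pairs.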

Additional observations from a re-analysis of the deposited data

Results flagged for a closer look

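A mouse was set apart where its gap to the nearest mouse of its group, divided by the group's range, exceeded Dixon's 95% critical value. Of the 18 gene and group pairs, chance would flag about 1 in 20 if CPM were normally spread within groups. Gaps were taken on CPM itself, and Cyp4a14 spanned 1296 times from lowest to highest in the anti-miR-873-5p group. For values this skewed the rate need not hold, and gaps on the log scale were not tested. In miR-Ctrl BDL, mouse 3 stood apart as the highest for Cyp4a14 (gap over range 0.996), Cyp4a10 (0.984), Cyp4a31 (0.978) and Cyp4a32 (0.973). In anti-miR-873-5p BDL, mouse 2 stood apart as the highest for Cyp4a14 (0.963), Cyp4a31 (0.893), Cyp4a32 (0.874) and Cyp4a10 (0.862). These 4 genes share mice and, in part, reads, so they are not independent. In no BDL, mouse 4 stood apart as the highest for Cyp4a12a (0.722). The cause was not tested.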

How the results depend on the processing

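The number of members called in miR-Ctrl BDL vs. no BDL, 2, became 5 without miR-Ctrl mouse 3, and leaving out 1 mouse at a time gave 2 to 5. In anti-miR-873-5p BDL vs. no BDL it was 2 and became 4 with library size alone, with Cyp4a14 (5.91) and Cyp4a31 (2.03) added as higher. It was 2 to 3 without 1 mouse (Cyp4a14 was added, at 5.82, without anti-miR-873-5p mouse 1). Values of BDL libraries had selected Cyp4a10, Cyp4a14, Cyp4a31 and Cyp4a32, so counts that include these genes are only a description. The median between both BDL groups, 1.84, became 0.94 with all 3 groups in 1 fit, 0.95 with all 4 mice of each group, and 1.60 to 2.10 without 1 mouse. Where a fit left 1 mouse out of 3, no group fell below 2 mice.

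Log2 fold changes that turned sign were not past the test as first given. With miR-Ctrl, Cyp4a14 turned to -2.39 and Cyp4a31 to -1.99 without miR-Ctrl mouse 3. Cyp4a10 turned to 0.22 and Cyp4a32 to 0.0059 with library size alone, and Cyp4a10 turned to 0.17 without no BDL mouse 3 and to 0.047, 0.044 and 0.066 without miR-Ctrl mouse 1, 2 or 4. With anti-miR-873-5p, Cyp4a10 turned to -1.24, Cyp4a31 to -0.40 and Cyp4a32 to -1.23 without anti-miR-873-5p mouse 2, and Cyp4a32 to -0.028 without no BDL mouse 5. Over single mice left out, with miR-Ctrl the ranges were -3.96 to 0.17 for Cyp4a10, -2.39 to 5.09 for Cyp4a14, -1.99 to 1.12 for Cyp4a31 and -3.34 to -0.20 for Cyp4a32. With anti-miR-873-5p they were -1.24 to 1.20 for Cyp4a10, 1.47 to 6.79 for Cyp4a14, -0.40 to 1.83 for Cyp4a31 and -1.23 to 0.56 for Cyp4a32. The cause was not tested.

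Taking mouse numbers as a replicate block, for which the labels give no pairing, 3 members were past the threshold and lower with miR-Ctrl. Cyp4a32, at -2.30, was added, which is only a description for the same reason, and Cyp4a31 turned to -0.90. With anti-miR-873-5p 2 were called under the block, and Cyp4a10 turned to -0.76 and Cyp4a32 to -0.76. The block gave a median of 1.47 between the BDL groups.

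List counts without the absent mouse were added after seeing the data. PPAR-alpha genes lower went from 6 to 18 and higher from 3 to 1 with miR-Ctrl, and lower from 2 to 11 with anti-miR-873-5p. Hepatocyte markers lower went from 4 to 7 and from 2 to 4, endothelial markers lower from 0 to 1 with miR-Ctrl, and macrophage markers higher from 1 to 2 with anti-miR-873-5p (0 with DESeq2's size factors). DESeq2 gave no adjusted p for Cyp4a14 in the comparisons against no BDL.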
